A study of Homo sapiens with 10 samples.

Results

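DEPP1 and PNRC1 are 2 of the 19970 protein-coding genes that RefSeq places on human chromosomes 1 to 22 and X. Both had more DNA under R-loop peaks in cells with the mutant TDP1 than in wild-type cells, and both were selected on that difference. The values of the libraries at these genes are therefore given as a description, with no test. A gene was taken from its RefSeq start to its end on GRCh38, with 1 kb added at both ends, which is called its window here.

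The study mapped R-loops by DRIP-seq in U2OS, an osteosarcoma cell line. An R-loop is an RNA-DNA hybrid with the other DNA strand displaced, and in DRIP-seq the S9.6 antibody pulls such hybrids out of sonicated nucleic acids for sequencing. The control cells were wild type (WT), and the others carried the TDP1 change H493R of SCAN1, an inherited ataxia with axonal neuropathy. TDP1 frees DNA ends from trapped topoisomerase 1. Peak lists were used from 5 DRIP libraries: WT from experiments 1 and 2, the mutant line SCAN1#1 from experiments 1 and 2, and the mutant line SCAN1#2 from experiment 2. The replicate number of a library is the number of its experiment, the antibody lot differed between the experiments, and the labels do not state how the mutant lines were derived. Nothing in the labels says that replicates were separate cultures, so spreads and p-values measure only the differences between these libraries. The 5 input samples were not analysed here.

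R-loops form behind RNA polymerase, often near the start of a gene and near its transcription end, and they are more frequent where a gene is being transcribed. DEPP1 encodes a small protein named for its induction by progesterone in the decidua. It is a known target of FOXO transcription factors and takes part in autophagy and in the control of reactive oxygen species. PNRC1 encodes a proline-rich protein that binds nuclear receptors and coactivates them. Like its paralog PNRC2, it also binds the mRNA decapping machinery, and it is known as a growth suppressor that acts in the nucleolus.

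DEPP1 (gene ID 11067) occupies 2682 bases of the minus strand of chromosome 10, from 44976128 to 44978809. Its transcription therefore starts at 44978809 and runs towards lower coordinates. PNRC1 (gene ID 10957) occupies 4410 bases of the plus strand of chromosome 6, from 89080751 to 89085160. The 250 bases before each start are shown because the peaks of the genes differ there: none reached the sequence before DEPP1, whereas the peaks of PNRC1 in SCAN1#1 replicate 1 and SCAN1#2 replicate 2 began in it. They are RefSeq promoter sequences of GRCh38.p14, written 5′ to 3′ on the strand of the gene.
DEPP1, chr10:44978810-44979059, minus strand: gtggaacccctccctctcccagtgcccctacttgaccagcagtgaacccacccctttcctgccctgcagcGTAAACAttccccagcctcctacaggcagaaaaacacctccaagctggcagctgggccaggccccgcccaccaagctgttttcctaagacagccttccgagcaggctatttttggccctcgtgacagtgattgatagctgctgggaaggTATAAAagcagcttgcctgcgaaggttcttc
PNRC1, chr6:89080501-89080750, plus strand: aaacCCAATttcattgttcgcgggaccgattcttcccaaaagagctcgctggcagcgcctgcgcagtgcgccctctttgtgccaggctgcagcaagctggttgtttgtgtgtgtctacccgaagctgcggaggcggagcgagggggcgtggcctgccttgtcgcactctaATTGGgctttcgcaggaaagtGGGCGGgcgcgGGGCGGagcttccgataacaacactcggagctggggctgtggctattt
Capitals in DEPP1 mark GTAAACA, the core letters that forkhead factors such as FOXO bind, 180 bases before the start, and the TATA box letters TATAAA, 31 bases before it. Capitals in PNRC1 mark the GC box letters GGGCGG and the CCAAT box letters CCAAT, the latter once on each strand.

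The promoters are of different kinds. Both strands were searched for each motif over the RefSeq window from 250 bases before to 50 bases after the start. GTAAACA was found in 2.62% and TATAAA in 9.64% of the 15811 protein-coding promoters, and DEPP1 holds 1 match of each. PNRC1 holds neither, but has 3 matches of GGGCGG, the third of them past the start and beyond the printed stretch, and 2 of CCAAT. Among all promoters, GGGCGG was found in 58.5% and CCAAT in 36.3% of promoters, and DEPP1 has 1 match of GGGCGG, on the other strand. The PNRC1 window holds 26 CpG dinucleotides and 61.7% G and C, against 6 and 57.3% in the DEPP1 window. GC skew, the excess of G over C divided by their sum on the coding strand, was -0.163 at DEPP1 and 0.0703 at PNRC1, the 11.5th and the 66.4th percentile of promoters. A positive skew is a textbook feature of promoters that form R-loops. The promoter window used here lies mostly before the start, and a link between its skew and the peaks was not tested. These matches describe letters and show no binding.

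Peaks lay along DEPP1 and past its end in all 3 SCAN1 libraries, while the WT libraries had 1 peak in its window between them. Each peak below is the authors' call, with its fold enrichment over the caller's background and its -log10 q. In WT replicate 2 a peak of 473 bases lay inside the gene, 1117 to 1589 bases from the start, with a fold enrichment of 5.29 and a -log10 q of 6.99. WT replicate 1 had no peak in the window. Its nearest peak, of fold enrichment 5.72, lay past the 3′ end of the gene, at 44974294 to 44974771.

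The peaks of the SCAN1 libraries in the DEPP1 window fell at 3 positions. The first lies within the 5′ part of the gene, at 44977220 to 44978722, and is the position of the WT replicate 2 peak. Here SCAN1#1 replicate 1 had a peak of 899 bases with a fold enrichment of 4.304 and a -log10 q of 5.59. SCAN1#1 replicate 2 had one of 863 bases, with 6.03 and 10.85, and SCAN1#2 replicate 2 one of 1374 bases, with 10.35 and 25.24. The fold enrichment was therefore lower in SCAN1#1 replicate 1 than in WT replicate 2, and the SCAN1#2 peak was the widest and strongest. The 3 SCAN1 peaks have 832 bases in common, and the one that came closest to the start began 87 bases inside the gene.

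The second position runs across the 3′ end of DEPP1, at 44975639 to 44976915, and no WT library had a peak there. SCAN1#1 replicate 1 had separate peaks there on each side of the gene end, of 532 bases inside DEPP1 (fold enrichment 4.43) and of 374 bases past it (6.02). SCAN1#1 replicate 2 had 1 peak of 1113 bases with a fold enrichment of 6.50 and a -log10 q of 15.87. SCAN1#2 replicate 2 had 1 peak of 1010 bases with 10.46 and 24.86. Both SCAN1#2 peaks that reach into DEPP1 were among the strongest 6.14% and 6.26% of the peaks of that library by -log10 p. In the SCAN1#1 libraries the peaks inside or across DEPP1 ranked between the strongest 21.5% and 54.0%, and the WT replicate 2 peak was in the strongest 58.9%.

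The third position, at 44974294 to 44975416, begins beyond the end of DEPP1 and was occupied in 4 libraries. Its fold enrichment was 5.72 in WT replicate 1, 5.87 and 5.65 in the SCAN1#1 libraries and 5.40 in SCAN1#2 replicate 2, so the WT value lay within the range of the SCAN1 values. The WT peak was narrower, at 478 bases against 783, 959 and 997, and it stopped short of the window. WT replicate 2 had no peak there.

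**Figure D1:**
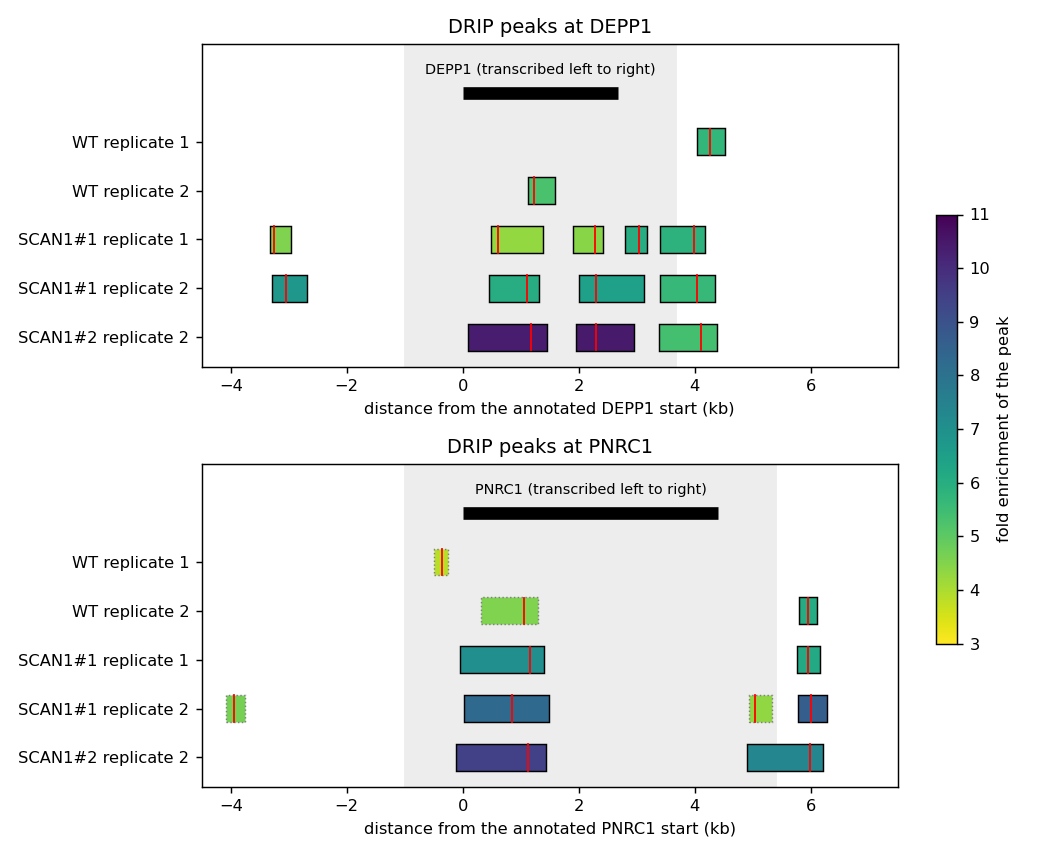
Peaks of each library at DEPP1 (top) and PNRC1 (bottom), by distance in kb from the annotated start in the direction of transcription. Each bar is a peak coloured by fold enrichment, its red line the summit, the black bar the gene and the grey area the window of the gene with 1 kb at both ends. Dotted bars fall outside the 63456 strongest peaks of their library. DEPP1 has peaks in its body and past its end in the 3 SCAN1 libraries, and PNRC1 has 1 broad peak at its start in the same libraries.

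At PNRC1 the peaks gathered at the start. One broad peak lay over the first part of the gene in each SCAN1 library, of 1457 bases in SCAN1#1 replicate 1, 1471 in SCAN1#1 replicate 2 and 1559 in SCAN1#2 replicate 2. Their fold enrichments were 7.05, 8.28 and 9.47 and their -log10 q values 9.38, 14.81 and 16.05 in the same order. These peaks were wider than 93.0% to 96.3% of the peaks of their libraries, and they have 1382 bases in common, from 89080774 to 89082155. They began 52 bases before the start in SCAN1#1 replicate 1, 123 bases before it in SCAN1#2 replicate 2 and 23 bases past it in SCAN1#1 replicate 2.

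Neither WT library was free of signal at PNRC1. WT replicate 2 had a peak of 979 bases at the same place, 89081068 to 89082046, with a fold enrichment of 4.55 and a -log10 q of 4.71, below all 3 SCAN1 values. WT replicate 1 had a peak of 244 bases, 261 to 504 bases before the start, with a fold enrichment of 3.86 and a -log10 q of 3.55. That peak lies over PNRC1-DT, a divergent long noncoding RNA gene (89080162 to 89080580, minus strand) whose start faces that of PNRC1. Both WT peaks were weak in their lists, ranking 70122 of 82545 and 72735 of 89445 by -log10 p.

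The 3′ end of PNRC1 had a position of its own, at 89085650 to 89087025, mostly outside the window. It was occupied in 4 libraries, with a highest fold enrichment of 6.06 in WT replicate 2, 6.17 and 8.64 in the SCAN1#1 libraries and 7.32 in SCAN1#2 replicate 2. WT replicate 1 had no peak there. Only the peaks of SCAN1#1 replicate 2 (399 bases, fold enrichment 4.32) and SCAN1#2 replicate 2 (1308 bases, 7.32) reached into the window, so what the window holds at this end differs by library more than the position does. No library had a peak in the last 2205 bases of PNRC1 itself.

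**Figure D2:**
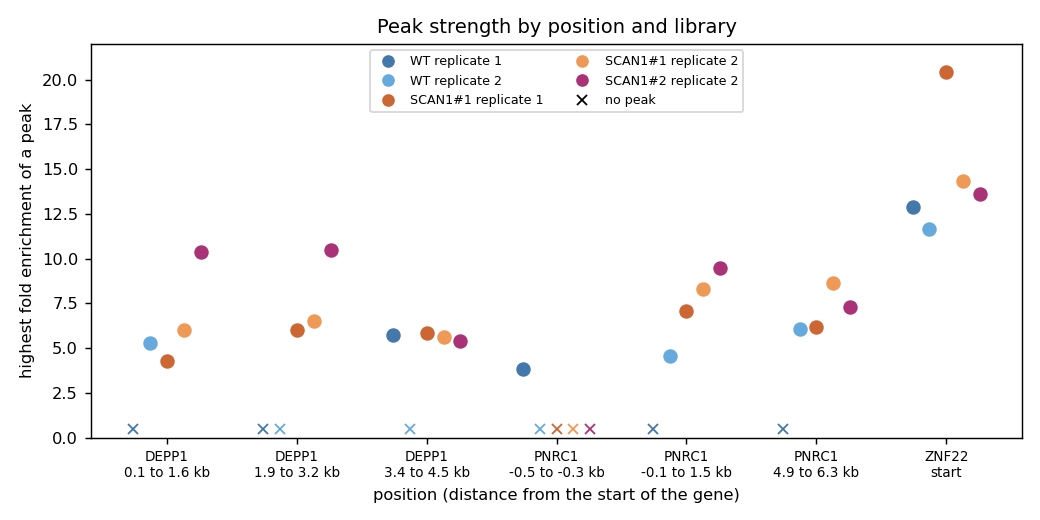
Highest fold enrichment of a peak (vertical axis, linear) at each position of the windows, by library, with the start of ZNF22, a neighbour of DEPP1, at the right. A cross marks a library with no peak. At the start of PNRC1 the SCAN1 values of 7.05 to 9.47 lie above 4.55 of WT replicate 2, whereas at DEPP1 3.4 to 4.5 kb from its start the values lie between 5.40 and 5.87 in 4 libraries.

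The share of a window under peaks was compared with the same number of peaks from each library, since the lists held 63456 to 110745 peaks. The 63456 of highest -log10 p were kept, which is the whole list of SCAN1#1 replicate 1 but 57.3% to 76.9% of the others. The lowest -log10 q kept was therefore 2.00 in SCAN1#1 replicate 1 and 3.97 to 7.74 elsewhere. On this measure DEPP1 was covered over 0% in WT replicate 1, 10.1% in WT replicate 2, 44.5% in SCAN1#1 replicate 1, 48.3% in SCAN1#1 replicate 2, and 57.1% in SCAN1#2 replicate 2. The groups did not overlap. The WT libraries averaged 5.05% ± 7.14 (SD, n = 2) and the SCAN1 libraries 49.97% ± 6.46 (SD, n = 3), a difference of 44.9 points.

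Ordered by coverage of DEPP1, the WT libraries came first, then SCAN1#1 and then SCAN1#2. The SCAN1#1 replicates differed by 3.84 points, less than the SD of the SCAN1 libraries. SCAN1#2 exceeded SCAN1#1 of its experiment by 8.76 points, with 1 library of each. Within experiments the mutant exceeded WT by 44.5 points (SCAN1#1, experiment 1), 38.2 (SCAN1#1, experiment 2) and 47.0 (SCAN1#2, experiment 2). The lists as deposited gave the same values, because every peak in the window was among those kept.

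The coverage of PNRC1 was 0% in both WT libraries, 22.7% and 22.9% in the SCAN1#1 libraries and 32.3% in SCAN1#2 replicate 2, a difference of 26.0 points. The 0% arose because both WT peaks were outside the 63456 strongest. In the lists as deposited the values were 3.81% and 15.3% in WT, 22.7% and 29.2% in SCAN1#1 and 32.3% in SCAN1#2, a difference of 18.5 points, and the groups did not overlap there either. The SCAN1#1 libraries differed by 0.22 points with lists of equal length. With those lists SCAN1#2 exceeded SCAN1#1 of its experiment by 9.34 points, of which the 3′ peak holds the larger share. Over the gene body alone the SCAN1 values were 31.9%, 33.4% and 32.6%. SCAN1#1 replicate 2 also had a 3′ peak in the window, which fell outside its 63456 strongest. As deposited, where that peak counts, SCAN1#1 replicate 2 at 29.2% and SCAN1#2 replicate 2 at 32.3% lay closer together, so much of the gap between the lines came from the cut.

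**Figure D3:**
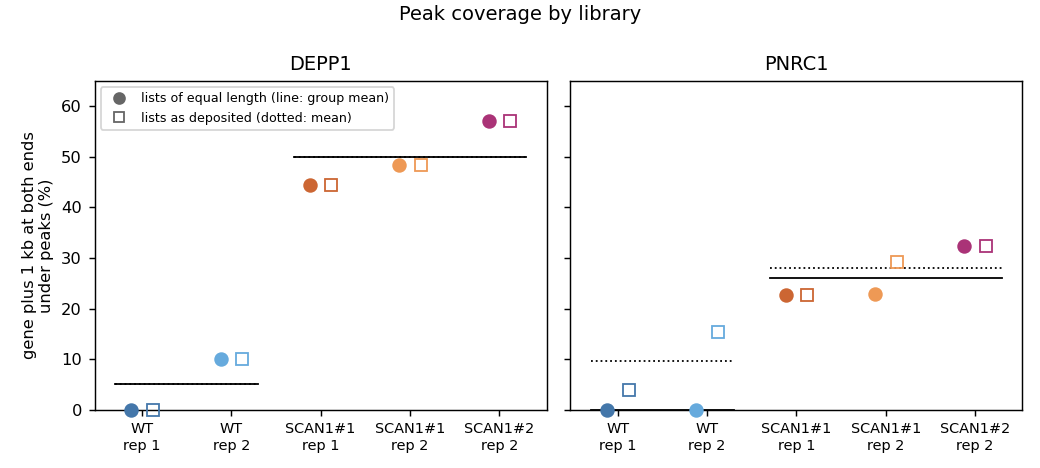
Percent of the DEPP1 and PNRC1 windows under peaks in each library. Filled circles use the 63456 strongest peaks of each library, with solid lines for group means, and open squares the lists as deposited, with dotted lines. At DEPP1 both measures are the same, from 0% and 10.1% in WT to 57.1% in SCAN1#2 replicate 2, and at PNRC1 the WT squares at 3.81% and 15.3% lie above the circles at 0%.

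The genes differed in which of their parts were covered. The kb before DEPP1 was at 0% in every library, and its body had 0% and 17.6% of its bases under peaks in WT, 53.4% and 57.1% in SCAN1#1 and 78.5% in SCAN1#2. Its first 1341 bases reached 93.5% in SCAN1#2 replicate 2 and 63.4% and 64.4% in the SCAN1#1 libraries. The kb past its end was at 0% in both WT libraries and at 65.2%, 73.1% and 56.7% in the SCAN1 libraries. In PNRC1 the first 2205 bases were covered over 63.7%, 66.7% and 65.1% in the SCAN1 libraries and, as deposited, over 44.4% in WT replicate 2. The rest of the gene was at 0% throughout. The 300-base promoter window of PNRC1 had a coverage of 34.0%, 9% and 57.7% in the SCAN1 libraries and at 0% in WT, and that of DEPP1 was at 0% in all 5.

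Among the 8471 protein-coding genes with a mean coverage of at least 2%, all 3 SCAN1 libraries lay above both WT libraries in 803, or 9.48%, and below them in 581, or 6.86%. DEPP1 and PNRC1 are both among the former, as the way they were selected required. In the lists as deposited the former share was 8.43% of 9717 genes, again with both genes among them. No peak in either WT library and a peak in every SCAN1 library was found in 0.472% of genes, PNRC1 among them with lists of equal length and DEPP1 not. The difference of DEPP1 ranked 2 and that of PNRC1 33 of the 8471. Over all tested genes limma with Benjamini-Hochberg adjustment called 0% higher and 0% lower (smallest adjusted p = 0.358), while an unadjusted p under 0.05 was reached by 164 higher and 131 lower genes. DEPP1 lay at the 83.7th to 94.1th percentile of tested genes in the SCAN1 libraries and at the 62.8th in WT replicate 2, and PNRC1 at the 70.1th to 86.5th in the SCAN1 libraries.

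The neighbours of both genes were described next, some of which share peaks with them. DEPP1 lies wholly inside RASSF4 (44959802 to 44995891), which encodes a Ras-association domain protein and is transcribed from the opposite strand. Peaks carry no strand, so hybrids of DEPP1 and of RASSF4 RNA cannot be told apart at DEPP1. Lists of equal length were used, with the DEPP1 window left out. RASSF4 then had 1.43% and 0% of its bases under peaks in WT, 4.09% and 5.97% in SCAN1#1 and 2.12% in SCAN1#2. The groups did not overlap, and the difference of 3.34 points had p = 0.2 (exact permutation test, two-sided). As deposited, WT replicate 2 had 0.994%, from a peak of fold enrichment 3.69 at 44968892 to 44969223. Both SCAN1#1 libraries also had a peak at that position, with 4.55 and 6.91. The SCAN1 values include the overhang of peaks that straddle the edge of the DEPP1 window, which is the whole of the 708 bases in SCAN1#2. Without the peaks that reach into that window, a setting chosen after seeing the data, the values were 1.43% and 0% in WT, 2.58% and 3.95% in SCAN1#1 and 0% in SCAN1#2. The groups then overlapped, and the difference of 1.46 points had p = 0.5 (exact permutation test, two-sided, whose 10 splits allow no p below 0.1).

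A peak before DEPP1, at 44981492 to 44982141 inside RASSF4, was present in both SCAN1#1 libraries and in no other library. It was 371 and 612 bases wide in replicates 1 and 2, with fold enrichments of 4.54 and 6.72. Next along the chromosome, the zinc finger gene ZNF22 had a coverage of 19.4% and 10.0% in WT against 18.0%, 27.5% and 20.9% in the SCAN1 libraries (limma, Benjamini-Hochberg adjusted p = 1). Its start had a peak in all 5 libraries, with fold enrichments of 12.9 and 11.7 in WT and 20.4, 14.4 and 13.6 in the SCAN1 libraries. LOC124902530, which shares that peak, had a coverage of 12.03% and 6.20% in WT against 11.1%, 12.7% and 8.20% in the SCAN1 libraries, where the groups overlapped. ZNF32, more than 1 Mb away, was also covered in every library, over 12.1% to 24.6%. The chemokine gene CXCL12 and the olfactory receptor gene OR13A1 had no peak in any library, and TMEM72 had one in SCAN1#1 replicate 2 alone with lists of equal length.

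PNRC1 stands in a sparser region. PNRC1-DT shares 1830 bases of its window with that of PNRC1 and has no covered base outside them, so it adds no separate measurement. PM20D2, the next gene downstream, had a coverage of 0% and 0.833% in WT against 0.391%, 0.623% and 0.565% in the SCAN1 libraries. The splicing regulator gene SRSF12 and, on the other side, the cannabinoid receptor gene CNR1 and the sperm gene SPACA1 had no peak in any library. With lists of equal length RNGTT, which encodes the mRNA capping enzyme, was at 0% in both WT libraries. It was at 0.106%, 0.180% and 0.317% in the SCAN1 libraries. As deposited, RNGTT had 0.104% in WT replicate 2, 0.106% and 0.516% in SCAN1#1 and 0.317% in SCAN1#2. GABRR1, a GABA receptor subunit gene, was covered in WT replicate 2 and SCAN1#2 replicate 2 alone with lists of equal length, over 0.688% and 0.498%. As deposited, SCAN1#1 replicate 2 also had 0.466% of GABRR1 covered. All of these lie below the 2% needed to be tested.

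Wider surroundings were counted to see how far coverage differed away from the genes. Positions were counted in the lists as deposited, which differ in length, and include those of the genes themselves. Within 250 kb of DEPP1 peaks fell at 35 positions, of which 6 were occupied in all 5 libraries and 12 in a single library. The 27 positions around PNRC1 included none occupied in all 5 and 18 in a single library. Coverage was again taken with lists of equal length. In 1 Mb on each side, with the DEPP1 window left out, 0.588% and 1.22% of bases were under peaks in WT, 0.594% and 1.37% in SCAN1#1 and 1.18% in SCAN1#2. These values differed by experiment more than by genotype. The difference of 0.146 points had p = 0.7 (exact two-sided permutation test over 10 splits), and it was -0.168 without WT replicate 1 and -0.015 without SCAN1#1 replicate 2. Around PNRC1 the values were 0.0612% and 0.251% in WT, 0.153% and 0.267% in SCAN1#1 and 0.384% in SCAN1#2, a difference of 0.112 points with p = 0.4 in the same exact permutation test, and leaving out WT replicate 1 or 2 gave 0.0174 or 0.207.

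**Figure D4:**
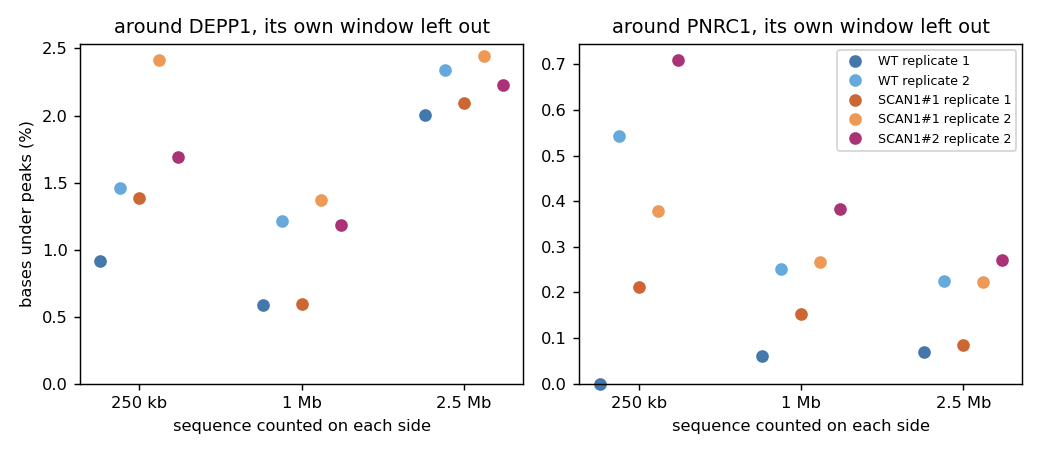
Percent of bases under peaks in 250 kb, 1 Mb and 2.5 Mb on each side of DEPP1 (left) and PNRC1 (right), the window of the gene left out, by library with lists of equal length. WT and SCAN1 points overlap at each width, and at 1 Mb around DEPP1 both libraries of experiment 1 lie below those of experiment 2.

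The genes whose coverage over the 5 libraries came nearest to that of each were found by the root mean square difference in percentage points. For DEPP1 these were HLA-E (11.6 points), LAMB3 (12.1), CHMP1B (12.4), SYTL1 (12.9) and LOC124902561 (14.2). HLA-E, a nonclassical histocompatibility gene on chromosome 6, had a coverage of 15.8% and 0% in WT against 37.0%, 43.8% and 41.4% in the SCAN1 libraries. The 0% holds only with lists of equal length, since HLA-E had 16.8% in WT replicate 2 as deposited. For PNRC1 they were GDF15 (3.74 points), LOC124900418 (5.39), DUSP7 (5.85), GLRX (6.73) and KLK6 (7.02). GDF15, the gene of a stress-induced cytokine on chromosome 19, was at 0% in both WT libraries and at 21.8%, 17.4% and 26.1% in the SCAN1 libraries. None shares a peak with DEPP1 or PNRC1, and a gene near such a profile has the same group difference by construction.

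Genes tied to the known roles of DEPP1 and PNRC1 were described in 3 lists. Of 32 further FOXO targets and FOXO genes, 18 reached the 2% for testing, and 0 were called higher or lower by limma with Benjamini-Hochberg adjustment (smallest adjusted p = 0.966), while 2 higher and 0 lower ones reached an unadjusted p under 0.05, beside 164 and 131 of all 8471. Their differences were positive in 15 and negative in 3, with a median of 1.76 points, against 0.0803 over all tested genes. The groups did not overlap in 4 higher genes (BCL6, PIK3IP1, GABARAPL1 and KLF2) and 1 lower (ATG14), beside the 9.48% and 6.86% of all tested genes. For BCL6 and ATG14 this held only with lists of equal length. As deposited, BCL6 had 4.92% and 8.17% in WT against 5.02%, 11.3% and 11.1% in the SCAN1 libraries. ATG14 had 3.62% and 6.22% in WT against 2.82%, 4.55% and 5.23% in the SCAN1 libraries. PIK3IP1, which encodes an inhibitor of PI3-kinase, had a coverage of 0.572% and 0.634% in WT against 10.8%, 15.8% and 13.6% in the SCAN1 libraries. The Krüppel-like factor gene KLF2 had a coverage of 36.8% and 35.1% in WT against 61.1%, 51.4% and 42.0% in the SCAN1 libraries. For its relative KLF6 the groups overlapped, with 27.9% and 14.5% in WT and 42.2%, 47.8% and 23.8% in the SCAN1 libraries. Within experiments KLF6 was higher in the mutant by 14.3 (SCAN1#1, experiment 1), 33.3 (SCAN1#1, experiment 2) and 9.35 points (SCAN1#2), and KLF2 by 24.3, 16.3 and 6.88 points in the same order.

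The decapping list holds the partners of PNRC1 and PNRC2 in mRNA decay. Of its 22 genes 19 were tested, 8 with a positive and 11 with a negative difference, and limma called 0 (an unadjusted p under 0.05 was reached by 0). The groups overlapped in all 19. The median was -0.195 points, and 0.175 with experiment as a block. PNRC2, the paralog of PNRC1 and a cofactor of decapping in nonsense-mediated decay, had a coverage of 49.8% and 50.2% in WT against 42.4%, 43.2% and 64.96% in the SCAN1 libraries, which lie on both sides of WT. The differences of largest size were -7.85 points in LSM2, -6.28 in EDC4 and -5.87 in LSM4, and the signs of PNRC2, LSM2 and LSM4 turned in some of the alternatives run. LSM2 and LSM4 encode subunits of the LSM ring and EDC4 the decapping scaffold.

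In the list of steroid hormone response genes, 8 of 23 were tested, 6 with a positive and 2 with a negative difference, with a median of 3.83 points and 0 called by limma (an unadjusted p under 0.05 was reached by 0). The groups did not overlap in NFKBIA and MT2A, 2 of the 8, both higher, beside the 9.48% of all tested genes. For NFKBIA this held only with lists of equal length. As deposited, its WT replicate 2 had 46.2%, above SCAN1#1 replicate 1 at 44.7%. The median rested on the WT libraries, at 0.767 points without WT replicate 2 and 5.81 without WT replicate 1. NFKBIA, the gene of an inhibitor of NF-kappaB, had a coverage of 34.0% and 40.3% in WT against 44.7%, 80.4% and 52.5% in the SCAN1 libraries. The metallothionein gene MT2A had a coverage of 38.4% and 50.9% in WT against 60.1%, 71.2% and 63.7% in the SCAN1 libraries. ESRRA, the gene of an orphan nuclear receptor, had overlapping groups and a difference of 6.02 points.

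**Figure D5:**
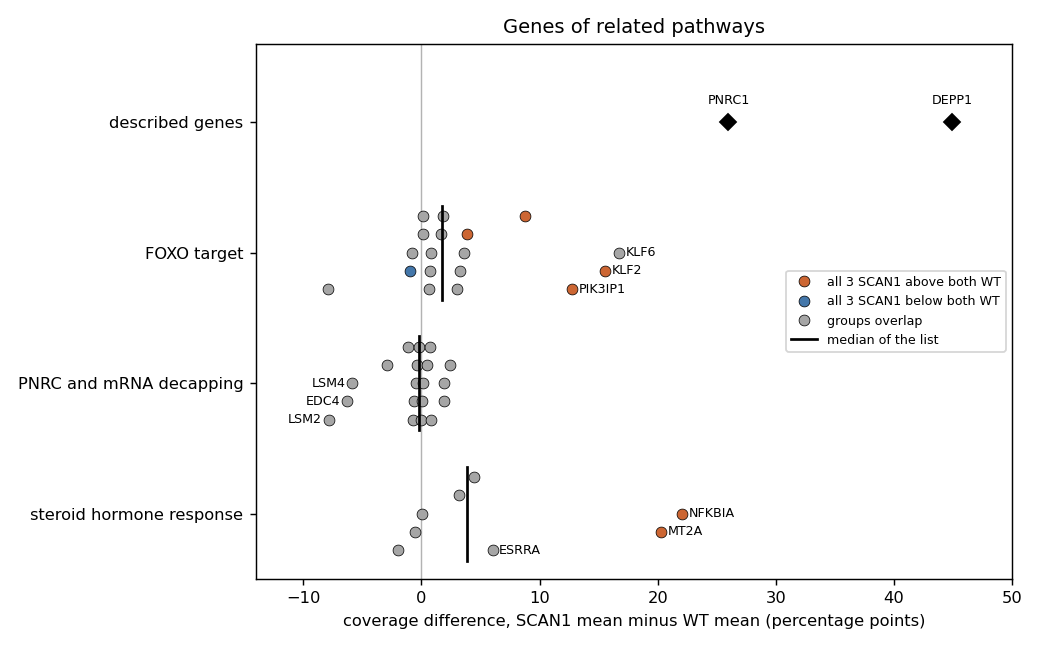
Difference in coverage with lists of equal length, SCAN1 mean minus WT mean in percentage points. Shown are the tested genes of each list, DEPP1 and PNRC1. Vertical bars are list medians (1.76, -0.195 and 3.83 points from top to bottom), and colours show whether the SCAN1 libraries all lay above or below both WT libraries. DEPP1 at 44.9 and PNRC1 at 26.0 points lie to the right of all listed genes, and both were selected on this difference.

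The libraries were checked against the label of the cell line, and the markers went both ways. Of 10 osteoblast or mesenchymal markers 5 were tested (COL1A1, SPARC, VIM, BGLAP and THY1), while COL1A2, SPP1 and TWIST1 were at 0% in every library with lists of equal length. Of 10 markers of other cell types 7 had no peak in any library, but EPCAM, an epithelial surface marker, was covered in all 5, over 6.72% to 9.72%. Mean coverage of the osteoblast or mesenchymal markers was 29.1% and 22.5% in WT and 20.8%, 20.6% and 14.4% in the SCAN1 libraries, so these groups did not overlap, in the direction opposite to DEPP1 and PNRC1. COL1A1 and THY1, which encode a collagen chain and a mesenchymal surface protein, had differences of -37.4 and -28.8 points, SPARC -7.01, VIM 0.20 and BGLAP 2.52. Mean coverage of the markers of other cell types was 0.875% to 1.33% in the SCAN1 and 0.887% to 0.984% in the WT libraries. The part of these differences in the values of DEPP1 and PNRC1 was not tested. Peaks come from pools of cells, in which fewer cells with a hybrid and fewer hybrids per cell cannot be told apart.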

How the data were processed

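DRIP-seq peak lists of 5 libraries (2 WT, 3 SCAN1) were used, 1 list per library. The submitters' processing notes name MACS3 3.0.0a6, BWA 0.7.17-r1188, deepTools 3.5.1, SAMtools 1.9 and FastQC 0.11.5, with the build hg38 and no roles. No source used here gives the control or the options of peak calling. The deposited lists give for each peak a fold enrichment (a ratio over the caller's background), a -log10 p and a -log10 q. The deposited score is 10 times the -log10 q, rounded down, in 99.97% or more of the peaks of each list, and was not used further. Read depth is unknown, so a missing peak means only that none was called, and no counting interval can be given.

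Genes came from the RefSeq table of GRCh38.p14, which is the hg38 assembly, and coordinates are 1-based. Coverage is the percent of a gene with 1000 bases added at both ends that lies under the 63456 peaks of highest -log10 p. Genes with a mean of at least 2% entered limma 3.58.1 in R 4.3.3 (lmFit and eBayes with trend, Benjamini-Hochberg threshold 0.05), both mutant lines as 1 group. Single values were tested by exact permutation in Python 3.11.15. The limma step was tested on simulated data.

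DEPP1, PNRC1, the gene lists and the tests were chosen with earlier results of these data known. Also named were genes overlapping their windows, the 3 nearest protein-coding genes on each side, the 5 nearest coverage profiles, the 3 tested genes of largest difference in each list, and PNRC2. BCL6, GABARAPL1, ATG14, BEX4 and the cell type markers were named after their values were seen. Replicate numbers pair the libraries, since by the labels each is an experiment. Across genes, deviations from group means had correlations of 0.612, 0.325 and 0.470 within experiments and of -0.325, -0.470 and -0.612 between them. The deviations of the 2 WT libraries mirror each other, so these correlations are not separate observations. Alternatives were the lists as deposited, stricter peaks, other gene windows, summits, scales and filters, each library left out, and experiment as a block.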

Additional observations from a re-analysis of the deposited data

How the results depend on the processing

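DEPP1 and PNRC1 kept a positive difference in each alternative run. For DEPP1 it was 54.2 points over the gene body alone and 30.1 with 3 kb added at both ends, and 39.9 to 49.97 with 1 library left out. For PNRC1 it was 18.5 points in the lists as deposited, 20.4 with peaks of fold enrichment of at least 4, 32.6 over the gene body alone, 19.97 with 3 kb added, and 22.8 to 27.6 with 1 library left out. With experiment as a replicate block the differences were 43.4 and 25.5 points, limma again called 0 genes higher and 0 lower, and the block changed no other call. On a log2(percent + 1) scale limma called 3 genes higher, PNRC1 and its nearest profiles GDF15 and LOC124900418, and 1 lower, BEX4. PNRC1 was selected on this difference, and GDF15 and LOC124900418 were named for their likeness to it. Their calls are therefore no separate test. All 3 were at 0% in both WT libraries with lists of equal length. As deposited, PNRC1 had 3.81% and 15.3% in WT and LOC124900418 3.86% and 3.74%, while GDF15 stayed at 0%. Genes with all SCAN1 libraries above both WT libraries numbered 500 with a filter of 5%, and 1037 to 2288 with 1 library left out, where fewer libraries have to be ordered.

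The difference in 1 Mb around DEPP1 ran from -0.168 to 0.461 points with 1 library left out, reversing without WT replicate 1 and without SCAN1#1 replicate 2 (-0.015), and it was 0.642 in 250 kb and 0.0819 in 2.5 Mb on each side. Around PNRC1 it ran from 0.0174 to 0.207 with 1 library left out. The median of the FOXO target list was 1.11 points in the lists as deposited, 1.26 with fold enrichment of at least 4, 2.69 over gene bodies, 0.763 with 3 kb added, 0.777 and 2.98 with filters of 0.5% and 5%, and 1.18 to 2.01 with 1 library left out. That of the steroid hormone response list was 0.136 with a filter of 0.5% and 0.767 to 5.81 with 1 library left out. The decapping list ran from -1.71 to 1.49 with 1 library left out. The cause of these changes was not tested. The other 112 values of these summaries and the 327 of single named genes changed no call. The uncalled differences of LSM2, LSM4, PNRC2, ESRRA and LOC124902530 took both signs among these settings. The summit setting was not run for sequence outside genes. The log2 scale was used only for the counts of called genes, so the values of lists and single genes do not include it. Peak lists without read counts cannot show differences below the calling threshold, and 3 libraries against 2 allow no exact p below 0.1.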
